A study of Mus musculus with 6 samples.

Results

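Acot1, Acot2, Acot3, Acot4, Acot5 and Acot6 are the type I acyl-CoA thioesterase genes that lie side by side on mouse chromosome 12. These 6 genes, of 24346 with values, were picked by name for this account, and they were selected with the difference between the 2 groups of livers already known. Their values in that comparison are therefore given as a description, without a test. The values come from RNA-seq of whole liver, 1 library per male C57/BL6 mouse. All 6 mice were 8 weeks old and were killed 24 hours after the hepatotoxin CCl4 was given intraperitoneally at 0.6 μl per g body weight in sunflower oil. The 3 control mice (wt in the sample labels) were med23 f/f, carrying floxed alleles of Med23, a subunit of the Mediator complex that links transcription factors to RNA polymerase II. The other 3 mice were labelled med23 Δli (med23 ko), in which an Albumin-cre transgene deletes Med23 in hepatocytes, so that other liver cells keep the gene. No liver without CCl4 was included, so each difference is between 2 groups of livers given CCl4. The groups need not be alike in injury. At the same time after acute treatment, the paper reports marked necrosis in control livers and hardly any in livers with the deletion. It also reports fewer apoptotic cells and lower serum levels of liver enzymes in the latter. The part of unequal injury in the differences given here was not tested.

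Acyl-CoA thioesterases split fatty acyl-CoA into free fatty acid and coenzyme A. They thereby set how much activated fatty acid and how much free CoA each compartment holds, and they act beside the synthetases and the beta-oxidation enzymes that make and consume acyl-CoA. The cluster arose by gene duplication, and its products differ in where they work: ACOT1 is cytosolic, ACOT2 is mitochondrial, and ACOT3 to ACOT6 are peroxisomal enzymes with different acyl chain preferences. In liver the cluster is a classical target of PPARα, the nuclear receptor that binds fatty acids and switches on their oxidation during fasting.

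The genes lay in the order Acot2, Acot1, Acot4, Acot3, Acot5 and Acot6, all on the plus strand, within 123.5 kb of mm10 (GENCODE M21, chr12:83987861-84111349). The gaps between neighbours ran from 3542 bp, between Acot4 and Acot3, to 24633 bp, between Acot5 and Acot6. The ends of the 6 coding sequences are shown because the final codons encode the tail of the protein, which in peroxisomal enzymes carries the import signal. Each is the last 60 coding bases on the plus strand, 5′ to 3′, within 1 exon (GENCODE M21, GRCm38), with the 3 codons before the stop codon in capitals.
Acot1: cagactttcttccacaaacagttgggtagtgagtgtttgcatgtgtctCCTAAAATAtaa
Acot2: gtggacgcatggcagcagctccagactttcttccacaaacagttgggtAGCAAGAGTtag
Acot3: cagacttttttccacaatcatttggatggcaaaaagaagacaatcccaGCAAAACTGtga
Acot4: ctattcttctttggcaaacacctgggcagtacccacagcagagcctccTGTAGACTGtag
Acot5: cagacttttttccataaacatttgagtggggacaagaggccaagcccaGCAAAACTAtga
Acot6: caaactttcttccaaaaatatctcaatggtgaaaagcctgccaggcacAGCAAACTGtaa
The last 2 of the 3 capital codons were AAACTG in Acot3 and Acot6 and AAACTA in Acot5, and AGACTG in the remaining gene for a peroxisomal enzyme, Acot4. Acot1 and Acot2, for the cytosolic and the mitochondrial enzyme, had AAAATA and AAGAGT there. Acot1 thus shared the codon AAA with Acot3, Acot5 and Acot6 and differed from them in the last codon. Acot1 and Acot2 were the most alike pair, 85.5% identical over their aligned coding sequences, with a longest shared run of 273 bases. Acot3 and Acot5 followed with 83.2%, and the least alike pair was Acot2 and Acot6 with 66.3%.

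This likeness bears on the values, since reads were 150 bases long and the way shared reads were divided is not given. Of all 150-base windows in its transcript, 12.39% in Acot1 and 10.21% in Acot2 also occurred in another cluster gene, against 3.36% in Acot5, 2.74% in Acot3, 0.31% in Acot6 and none in Acot4. With the gene model Gm49366, which spans Acot4 and Acot3, counted as well, the share in Acot3 was 11.27%. Among the cluster genes alone, the shares of Acot1 and Acot2 were the largest, so the sum of Acot1 and Acot2 is given as well. Some windows of Acot1 also occurred in Acot3 or Acot5. The antisense gene 4732463B04Rik also overlaps both Acot4 and Acot3. Of their exon bases, 9.21% in Acot4 and 9.08% in Acot3 overlap exons of this antisense gene. Counting by strand is not stated, so within those stretches reads of the overlapping genes cannot be told apart.

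Levels are given in FPKM, fragments per kilobase of transcript, scaled to the number of mapped fragments in the library, a unit that corrects for length and so allows levels of different genes to be set side by side. A log2 fold change is the mean of log2(FPKM + 0.1) in livers labelled med23 Δli minus that in med23 f/f livers, with its standard error (SE) from limma. In whole liver, fewer cells of a type and less RNA per cell cannot be told apart. The mean of Med23 itself was 3.51 ± 0.589 FPKM (SD, n = 3) for med23 f/f and 3.24 ± 0.286 FPKM for the livers with the other label. Its log2 difference was -0.11 (limma adjusted p = 0.685), so the deleted gene did not separate the groups in whole tissue and livers are named by label.

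All 6 cluster genes had a higher mean in the livers labelled med23 Δli. The difference ran from 1.36-fold for Acot4 to 45.1-fold for Acot5 as a ratio of mean FPKM. Acot1, Acot2, Acot5 and Acot6, 4 of the 6, had a log2 fold change over 1, as did 5.52% of the 11956 genes tested. In Acot2, Acot4, Acot5 and Acot6, also 4 of the 6, every liver labelled med23 Δli was above every med23 f/f liver, as in 23.3% of the genes tested. Since this contrast chose the genes, nothing is read from these shares. Nearest to a log2 fold change of 1 were Acot1 above it (1.11) and Acot3 below it (0.53).

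**Figure D1:**
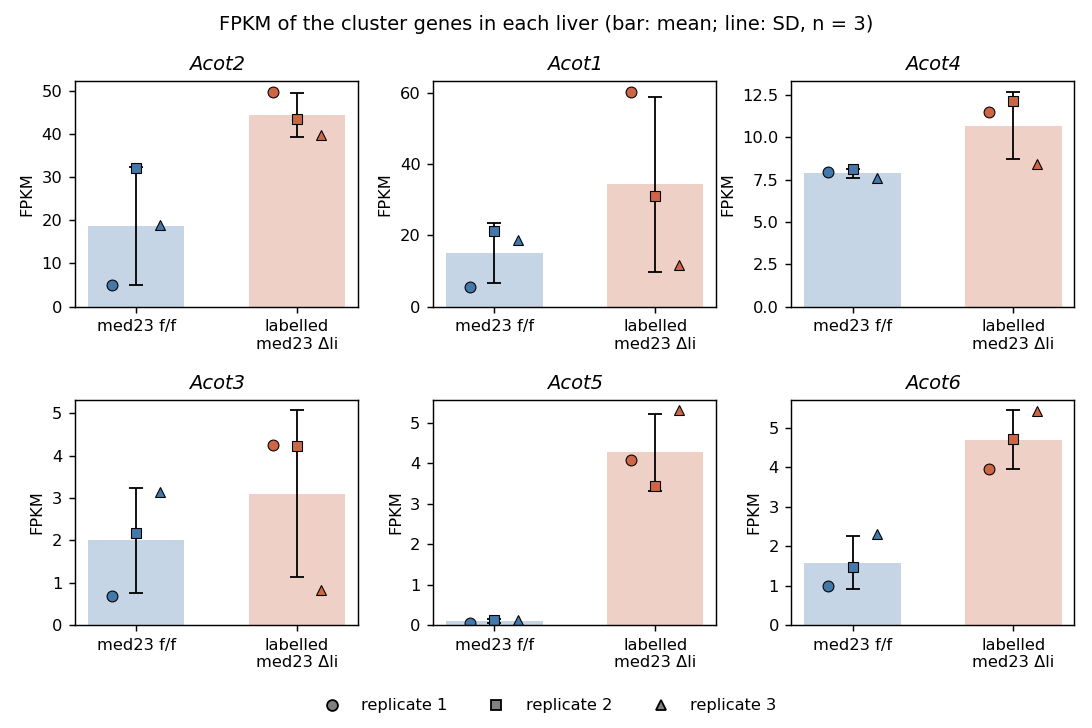
FPKM (y axis, linear, a separate scale in each panel) of each cluster gene in the 3 med23 f/f livers (blue) and the 3 livers labelled med23 Δli (orange); points are livers, bars are means and lines are SD (n = 3). Acot5 was between 0.0443 and 0.127 FPKM in med23 f/f livers and between 3.43 and 5.30 FPKM in the others, while the groups overlapped for Acot1 and Acot3.

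Acot1, which encodes the cytosolic enzyme, was at 5.49, 21.1 and 18.6 FPKM in med23 f/f livers 1 to 3 and at 60.4, 31.1 and 11.6 FPKM in livers 1 to 3 labelled med23 Δli. The groups overlapped: the lowest liver labelled med23 Δli, the third, was below 2 of the 3 med23 f/f livers. Mean FPKM was 15.1 ± 8.39 and 34.4 ± 24.6 (SD, n = 3), which is 2.28-fold, and the log2 fold change was 1.11 (SE 0.66). The SD was 55.7% of the mean in the first group and 71.4% in the second. Without the first med23 f/f liver the log2 fold change was 0.49, and without the third liver labelled med23 Δli it was 1.73.

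Acot2, for the mitochondrial enzyme, had the highest mean FPKM of the family in both groups. Its level was 4.87, 32.2 and 18.9 FPKM in livers 1 to 3 of med23 f/f mice, against 49.7, 43.5 and 39.8 FPKM in livers 1 to 3 labelled med23 Δli. All 3 of the latter were above all 3 of the former, and they also lay closer together, with an SD of 11.3% of the mean against 73.2%. The means were 18.6 ± 13.6 and 44.3 ± 5.02 FPKM, a log2 fold change of 1.61 (SE 0.58) and a 2.38-fold ratio. The first med23 f/f liver was again the lowest, and without it the log2 fold change was 0.84.

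Acot1 and Acot2 together reached 10.4, 53.3 and 37.5 FPKM in med23 f/f livers and 110.1, 74.5 and 51.4 FPKM in livers labelled med23 Δli. The sums overlapped, because the second med23 f/f liver was above the third liver labelled med23 Δli. The ratio of Acot1 to Acot2 was 1.13, 0.657 and 0.983 in the first group and 1.22, 0.714 and 0.292 in the second, so the third liver labelled med23 Δli stood out by its low Acot1 beside a high Acot2.

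Acot4, a peroxisomal thioesterase that acts on dicarboxylic acyl-CoA such as succinyl-CoA, had the smallest log2 fold change of the cluster. It was at 7.94, 8.10 and 7.57 FPKM in med23 f/f livers and at 11.5, 12.2 and 8.42 FPKM in livers labelled med23 Δli. The groups did not overlap, although the third liver labelled med23 Δli was close to the controls. The log2 fold change was 0.42 (SE 0.16), and the SD was 3.44% of the mean in med23 f/f livers and 18.6% in the others.

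Acot3, for a peroxisomal enzyme of long-chain acyl-CoA, was at 0.684, 2.17 and 3.15 FPKM in med23 f/f livers and at 4.26, 4.22 and 0.825 FPKM in livers labelled med23 Δli. Livers 1 and 2 of the second group were above every control, and the third was below 2 of the 3 controls. The log2 fold change was 0.53 (SE 0.70). Its direction rested on single livers: it was -0.067 without the first med23 f/f liver and 1.27 without the third liver labelled med23 Δli.

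Acot5, for a peroxisomal enzyme of medium-chain acyl-CoA, showed the widest gap between the groups. Its level was 0.0443, 0.112 and 0.127 FPKM in med23 f/f livers and 4.08, 3.43 and 5.30 FPKM in livers labelled med23 Δli. The lowest of the latter was therefore far above the highest of the former. Mean FPKM was 0.0946 ± 0.0442 against 4.27 ± 0.951, and the log2 fold change was 4.49 (SE 0.29). This size depends on the pseudocount, since the controls lay near 0.1 FPKM: it was 2.25 with a pseudocount of 1 and 5.44 with 0.01. Acot5 was the 1 cluster gene that reached the expression minimum of 0.5 FPKM only through the livers labelled med23 Δli.

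Acot6, the last gene of the cluster and also peroxisomal, was at 0.979, 1.46 and 2.31 FPKM in med23 f/f livers and at 3.95, 4.73 and 5.43 FPKM in livers labelled med23 Δli. The groups did not overlap. The means of 1.58 ± 0.675 and 4.70 ± 0.742 FPKM were 2.97-fold apart, and the log2 fold change was 1.58 (SE 0.29).

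Ordered by mean FPKM, the genes ran Acot2, Acot1, Acot4, Acot3, Acot6, Acot5 in med23 f/f livers and Acot2, Acot1, Acot4, Acot6, Acot5, Acot3 in livers labelled med23 Δli. In the first order the ranges of Acot4 and Acot3, and of Acot6 and Acot5, did not overlap, and the other neighbours did. In the second order the ranges of Acot4 and Acot6 did not overlap, and those of all other neighbours did. Acot5 thus stood apart at the bottom in med23 f/f livers and could not be separated from Acot6 or Acot3 in the others. The ratio of Acot5 to Acot6 was 0.0453, 0.0768 and 0.0551 in the first group and 1.03, 0.726 and 0.976 in the second.

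Summed over the cluster, FPKM was 20.0, 65.1 and 50.7 in med23 f/f livers and 133.9, 99.1 and 71.4 in livers labelled med23 Δli. No liver of the second group was below one of the first. Acot5 made up 0.215% of this sum on average in the first group and 4.65% in the second, while the share of Acot4 was 22.3% in the first and 10.9% in the second. The Acot4 share in med23 f/f livers was 39.7%, 12.4% and 14.9%, and without the first of them its mean was 13.7%.

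Livers of the same group also differed from each other. Taken as the log2 deviation from the mean of its own group, Acot1 was at -1.22, 0.70 and 0.52 in med23 f/f livers and at 1.11, 0.15 and -1.26 in livers labelled med23 Δli. Acot3 was at -1.19, 0.34 and 0.86 and at 0.75, 0.74 and -1.49. Both were thus lowest in the first med23 f/f liver and in the third liver labelled med23 Δli. Acot5 was at -0.40, 0.15 and 0.25 and at -0.04, -0.29 and 0.33, and so, among the livers labelled med23 Δli, was highest in the one where Acot1 and Acot3 were lowest.

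Likeness was measured as the root mean square (RMS) difference between 2 genes' centred log2 profiles over the 6 livers, where 0 is identical. A gene that does not vary scores the other gene's own RMS, so small values come easily for genes that vary little. On deviations from group means Acot1 and Acot3 were 0.36 apart, beside own RMS values of 0.92 and 0.97. Acot5 and Acot6 were 0.23 apart, beside own values of 0.27 and 0.36. The longest coding run shared by Acot1 and Acot3 was 203 bases, and that shared by Acot5 and Acot6 was 159, both longer than a read. The part of shared reads in the likeness of cluster genes was not tested. Among 10455 other genes, the gene closest to Acot1 on these deviations was Cyp4a14, a fatty acid omega-hydroxylase of the P450 family, at 0.41, followed at 0.43 by Ehhadh, the bifunctional enzyme of peroxisomal beta-oxidation. Cyp4a14 was at 5.18, 16.3 and 13.0 FPKM in med23 f/f livers and at 174.1, 37.5 and 16.1 FPKM in livers labelled med23 Δli, high and low in the same livers as Acot1. On the same deviations the closest genes were Cgref1 and Cxcl13 for Acot2, Insl3 and Ctse for Acot3, Xpo5 and Dok2 for Acot4, Ydjc and Npr2 for Acot5, and Bvht and Slc27a1 for Acot6. Of these, Slc27a1 is a fatty acid transporter. For the whole profile, group difference included, the closest genes were Fam19a5 and Ehhadh for Acot1 (0.52 and 0.53), March9 and Acaa1b for Acot2 (0.53 and 0.57), and Fam19a5 and Chd3os for Acot3 (0.51 and 0.52). They were Dlg5 and Fau for Acot4 (0.05 and 0.06), Nyx and Snora78, the latter listed at 0 in every med23 f/f liver, for Acot5 (0.39 and 0.46), and Map2k3os and Osbpl2 for Acot6 (0.18 and 0.20). Own RMS over the whole profile ran from 0.27 for Acot4 to 2.26 for Acot5. Likeness over 6 livers of 2 groups was not tested.

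**Figure D2:**
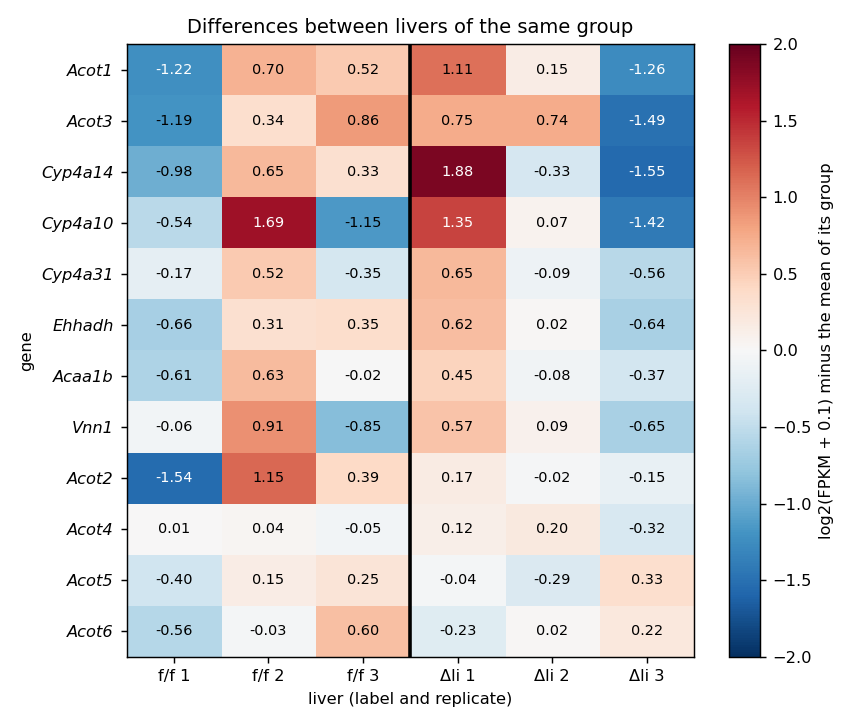
Log2(FPKM + 0.1) minus the mean of the liver's own group (colour and printed value) for 12 genes (rows) in the 6 livers (columns; black line between groups). All genes shown except Acot4, Acot5 and Acot6 were below their group mean in med23 f/f liver 1 and in liver 3 labelled med23 Δli. Acot4 stayed within 0.33 of its group mean.

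Genes on either side of the cluster were examined as a check of the surrounding region. Of 42 genes annotated within 500 kb, 21 were matched to a row of values and 15 reached the expression minimum. None of these 15 was called, at a limma adjusted p under 0.05 and a log2 fold change over 1 in size, against 4.45% of all genes tested called up and 3.45% called down. At an unadjusted p under 0.05 there were 5 of the 15 (Zfyve1, Coq6, Entpd5, Aldh6a1 and Abcd4), against 37.6% of all genes tested. At an adjusted p under 0.05 of any size, which 21.1% of all genes reached, there was 1, Aldh6a1, a mitochondrial dehydrogenase of valine breakdown, at a log2 fold change of 0.72 (adjusted p = 0.0245). Nearest to the cluster among the genes tested, Riox1 (2410016O06Rik in the values) on the Acot2 side was at 0.07 and Elmsan1 on the Acot6 side at -0.15. Others were Dcaf4, Ptgr2, Zfp410 and Lin52 above 0 and Rbm25, Numb and Rnf113a2 below it. The neighbours ran from -0.60 for Abcd4 to 0.72, with a median of 0.13, beside 1.34 for the 6 cluster genes and 0.02 for all genes tested. Since this contrast chose the cluster genes, nothing is read from their higher median.

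**Figure D3:**
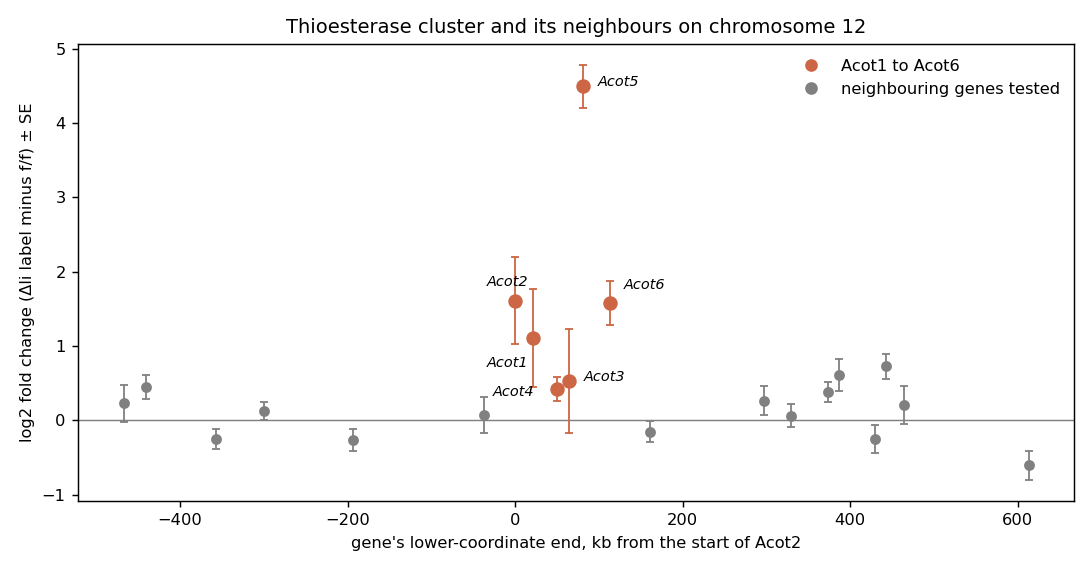
Log2 fold change (livers labelled med23 Δli minus med23 f/f, ± SE from limma, y axis) against the distance in kb from the start of Acot2 (x axis) for the 6 cluster genes (orange) and the 15 tested neighbours (grey). The neighbours lay between -0.60 and 0.72, and 4 cluster genes, which were chosen on this contrast, lay above 1.

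Promoter sequence was read for 5 of the 6 genes, as the 250 bases before the RefSeq start (GRCm38.p6, plus strand). The search covered DR1, the paired element AGGTCANAGGTCA bound by PPARα with RXR, with up to 2 mismatches, the single element AGGTCA, its longer form TAGGTCA, and the general promoter boxes TATAAA and CCAAT, each on both strands. Windows are shown for Acot2, the highest gene (chr12:83987611-83987860), Acot4, the one with a DR1 match (chr12:84038129-84038378), and Acot5, the gene with the largest difference (chr12:84069074-84069323). Capitals mark matches to DR1, AGGTCA and CCAAT, where ATTGG and TGACCT are the minus-strand forms.
Acot2: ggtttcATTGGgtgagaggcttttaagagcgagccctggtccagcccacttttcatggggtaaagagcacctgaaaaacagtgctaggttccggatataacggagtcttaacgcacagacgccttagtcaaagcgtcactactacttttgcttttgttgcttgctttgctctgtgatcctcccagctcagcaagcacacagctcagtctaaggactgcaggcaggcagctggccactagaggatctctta
Acot4: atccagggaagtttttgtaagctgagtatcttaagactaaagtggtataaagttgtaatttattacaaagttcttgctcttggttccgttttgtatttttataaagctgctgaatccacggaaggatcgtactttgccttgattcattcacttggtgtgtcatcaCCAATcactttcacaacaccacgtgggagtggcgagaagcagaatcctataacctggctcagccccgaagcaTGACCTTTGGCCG
Acot5: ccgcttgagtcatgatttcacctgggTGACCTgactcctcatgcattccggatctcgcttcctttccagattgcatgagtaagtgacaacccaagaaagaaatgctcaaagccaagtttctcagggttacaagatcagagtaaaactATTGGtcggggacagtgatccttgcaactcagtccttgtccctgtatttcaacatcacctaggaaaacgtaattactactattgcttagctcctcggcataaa
The DR1 match of Acot4 had 2 mismatches, lay on the minus strand from -13 to -1 and contained its AGGTCA element, while 3.24% of 32851 promoters of the same length held such a match. Acot5 held an AGGTCA element at -224, letters that occurred in 14.02% of promoters. CCAAT was found in all 5 windows, at -244 in Acot2, -79 in Acot1, -85 in Acot4 and -103 in Acot5, and at -77 and -113 in Acot3, against 33.85% of promoters. TATAAA was found in Acot4, at -205 and -151 on the plus strand and at -153 on the minus strand, the last overlapping the one before, and in 12.37% of promoters. TAGGTCA was in none of the 5 windows and in 2.23% of promoters. These are matches of letters, not sites shown to be bound.

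Thioesterases outside the cluster were compared next, beside 4.45% of all genes called up, 3.45% called down and 21.1% at an adjusted p under 0.05 of any size. Of 9 type II thioesterases, a family unrelated in sequence, 7 were tested and Them4 alone was called up, from 5.21 ± 0.296 to 10.8 ± 1.53 FPKM (SD, n = 3). Its log2 fold change was 1.02 (limma adjusted p = 0.00574), a call lost under 5 of 14 alternatives, among them leaving out the second or the third liver labelled med23 Δli, and the list's median was 0.72. Acot8, Acot9 and Acot13, for peroxisomal and mitochondrial enzymes, were higher at an adjusted p under 0.05 without reaching 2-fold (log2 fold changes 0.72, 0.87 and 0.85; adjusted p = 0.0129, 0.0127 and 0.0209). Baat, Acnat1 and Acnat2, the nearest type I relatives outside chromosome 12, which conjugate bile or fatty acids to amino acids, held no call and had a median of -0.36. Acnat2 was lower, at 64.9 ± 5.61 against 42.5 ± 3.14 FPKM (log2 fold change -0.61, adjusted p = 0.0179).

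Of 48 known targets of PPARα, 47 were tested, 4 were called up and 2 down, against 4.45% and 3.45% of all genes tested, with a median of 0.38 beside 0.02 for all genes tested. Among those called up were Crot (log2 fold change 1.65), which prepares shortened acyl groups for export from peroxisomes, Cyp4a31 (1.71) and Acadm (1.09), the medium-chain acyl-CoA dehydrogenase. Their adjusted p-values were 0.00356, 0.0136 and 0.00299 in this order by limma. Cidec and Plin2, which coat lipid droplets, were called down, with log2 fold changes of -3.24 and -1.38 (adjusted p = 0.0161 and 0.00579). Cyp4a10 and Cyp4a14 were not called, at log2 fold changes of 2.63 and 2.18 (adjusted p = 0.0592 and 0.0874). Crot, Cyp4a31 and Plin2 were called under all 14 alternatives. The call of Cidec was lost without the first or the third liver labelled med23 Δli. Ppara itself was at 14.0 ± 3.65 and 12.4 ± 1.53 FPKM (log2 fold change -0.15, adjusted p = 0.636).

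Each pathway around acyl-CoA was read against the shares called over all genes tested, 4.45% up and 3.45% down. Crot was the 1 call among 22 genes of peroxisomal beta-oxidation (median 0.43), and Acadm the 1 call among 20 of mitochondrial beta-oxidation (median 0.32). In omega-oxidation, where P450 enzymes and dehydrogenases make the dicarboxylic acids that peroxisomes take up, 3 of 14 genes were called up (Cyp4a31, Cyp4f15, Adh4) and 2 down (Adh7, Cyp4a12b). The call of Adh4 was lost without the first or the third liver labelled med23 Δli, and those of Adh7 and Cyp4a12b without any 1 of these 3 livers and under other settings. Of 19 regulators tested, 5 were called up, among them Pparg (1.19 ± 0.226 against 6.29 ± 2.04 FPKM, adjusted p = 0.00237). Pparg was called under all 14 alternatives, while Lpin1 and Nrip1, also among the 5, were each called under 7. Rxrg, a partner receptor of the PPARs, was the 1 regulator called down, its log2 fold change being -2.12 (adjusted p = 0.00585).

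**Figure D4:**
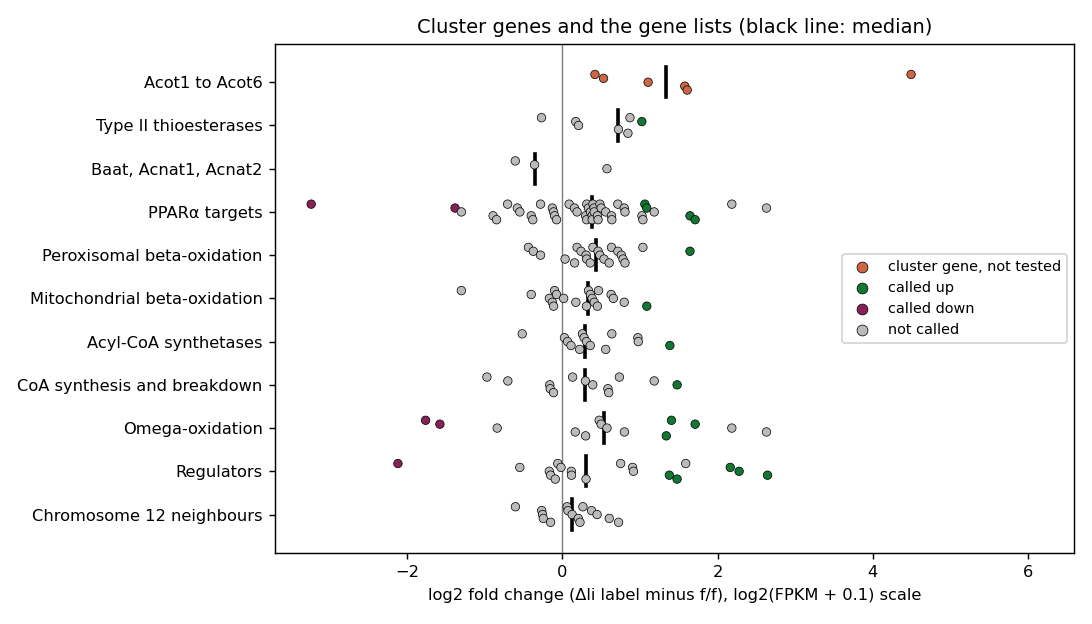
Log2 fold change (x axis) of the 6 cluster genes (orange, not tested) and of the tested genes of each list (rows), with called genes in green (up) or purple (down), other genes in grey and the median as a black line. The cluster genes, which were chosen on this contrast, had a median of 1.34, and the medians of the lists lay between -0.36 and 0.72.

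Markers of cell types and zones were read beside these values. Summed FPKM of 11 hepatocyte markers was 29134 to 39999 in med23 f/f livers and 25101 to 31996 in livers labelled med23 Δli, and these markers of the labelled tissue were abundant in every liver. The sum of 8 pericentral hepatocyte markers, from the zone that CCl4 injures, was 424.2 to 578.0 and 940.4 to 1071 FPKM, higher in every liver labelled med23 Δli, with Cyp2e1, Cyp1a2 and Gulo, 3 of the 8, above the controls in each and Rhbg below them in each. Cyp2e1 alone made up 184.1 to 336.3 FPKM of the first sum and 558.8 to 616.6 FPKM of the second. All 5 endothelial markers were lower in every such liver, with sums of 73.6 to 109.5 and 38.5 to 41.4 FPKM. The second liver labelled med23 Δli also stood out for 10 adipocyte markers, with a sum of 224.6 FPKM against 28.4 to 70.9 in the other 5 livers, and Adipoq, at 0 in every control, was at 5.65 FPKM there. Without that liver the log2 fold changes were 1.03 for Acot1, 1.62 for Acot2, 0.16 for Acot3, 0.32 for Acot4, 4.64 for Acot5 and 1.57 for Acot6. The part of pericentral, endothelial and adipocyte RNA, and that of unequal injury, in the cluster's values was not tested.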

How the data were processed

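RNA from 6 livers was sequenced as paired 150-base reads (TruSeq v2 libraries, Illumina HiSeq). The authors trimmed the reads, aligned them to UCSC mm10 with TopHat and deposited FPKM per library from Cuffdiff; versions, gene annotation and the treatment of reads shared between genes are not given in the sources used here. The authors' own fold changes, p-values and q-values in the same table were not used. FPKM hold no counts and the depth of each library is not in the files (the study gives a median over samples), so errors are the spread over the 3 livers in each group, each from its own mouse.

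The 11956 genes (of 24346) whose mean FPKM reached 0.5 were compared as log2(FPKM + 0.1) with limma 3.58.1 in R 4.3.3 (eBayes with trend, Benjamini-Hochberg adjustment), and called at an adjusted p under 0.05 and a log2 fold change over 1 in size. The step was tested on simulated data. The members and lists were chosen with earlier results of these data known, so the 6 cluster genes had no test and lists are given as counts and medians. Named were all cluster genes, up to 4 called genes per list with the largest change and those whose role the text needed, and the 2 genes most alike each cluster gene among those with a mean of at least 1 FPKM. Positions, transcripts and coding sequences were from GENCODE M21 and promoters from RefSeq, both GRCm38, the same assembly as mm10. Alternatives were other pseudocounts, filters, scalings, variance models and thresholds, a replicate block, and leaving out each liver. Some of the genes examined are not reported here. Likeness on deviations from group means was added after seeing the data.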

Additional observations from a re-analysis of the deposited data

How the results depend on the processing

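The log2 fold change of each cluster gene kept its sign under other pseudocounts, median centring, quantile normalization and leaving out each liver in turn, except Acot3, at -0.067 without the first med23 f/f liver. Leaving out 1 liver gave 0.49 to 1.73 for Acot1, 0.84 to 2.19 for Acot2, -0.067 to 1.27 for Acot3, 0.32 to 0.58 for Acot4, 4.29 to 4.64 for Acot5 and 1.30 to 1.88 for Acot6. Without the first med23 f/f liver 2 of the 6 genes, Acot5 and Acot6, stayed over a log2 fold change of 1, without the first liver labelled med23 Δli 3, and without the third 5. Acot5 was at 2.25 with a pseudocount of 1 and 5.44 with 0.01, because its controls lie near the pseudocount.

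Over all genes, 532 were called up and 412 down. Leaving out 1 liver gave 321 to 718 up and 255 to 531 down, an adjusted p without a fold limit gave 1384 up and 1133 down, and a pseudocount of 1 gave 229 down. Over the lists together, leaving out 1 liver gave 10 to 18 up and 2 to 7 down, no fold limit gave 33 up and 9 down, and 3 were down without the filter or without the trend. For the PPARα targets, leaving out 1 liver gave 3 to 7 up and 1 to 3 down, no fold limit gave 11 up, and quantile normalization gave 2 up. The causes were not tested.

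Equal replicate numbers gave no sign of pairing: the correlation of same-numbered livers' deviations was -0.022, -0.046 and -0.124. For differently numbered livers it ran from -0.089 to 0.115. With 3 livers per group these correlations cannot exclude pairing. With the replicate number as a block, 477 genes were called up and 353 down, and the log2 fold changes of the cluster genes were the same, such as 4.49 for Acot5. The files give no reads per gene or library, so no counting interval was made for low values such as Acot5 in the controls.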

Other observations

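Enzymes that make acyl-CoA and coenzyme A, the substrate and the product of the thioesterases, were read beside 4.45% of all genes called up and 3.45% called down. Of 14 acyl-CoA synthetases tested, Acsm5, for a medium-chain synthetase of mitochondria, was called up, from 3.62 ± 1.61 to 8.93 ± 0.114 FPKM (SD, n = 3; log2 fold change 1.39, limma adjusted p = 0.0208), a call lost without the third med23 f/f liver or without any 1 of the livers labelled med23 Δli. Of 13 genes of CoA synthesis and breakdown, Nudt7, the peroxisomal hydrolase that degrades CoA, was called up, at 61.2, 53.5 and 107.1 FPKM in med23 f/f livers and 189.6, 208.4 and 193.0 FPKM in livers labelled med23 Δli (log2 fold change 1.48, adjusted p = 0.00824). Its groups did not overlap and it was called under all 14 alternatives. Nudt19, another hydrolase of CoA, was lower in every liver labelled med23 Δli, at 48.7 ± 7.05 against 29.9 ± 4.02 FPKM, short of 2-fold (log2 fold change -0.70, adjusted p = 0.0208). Slc25a42, the mitochondrial CoA carrier, was higher, at 14.5 ± 1.73 against 24.6 ± 5.44 FPKM (log2 fold change 0.74, adjusted p = 0.0324). Ppcs, which acts early in CoA synthesis, was lower, at 44.5 ± 11.8 against 22.2 ± 1.10 FPKM, and was not called (log2 fold change -0.97, adjusted p = 0.0128).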
